A study of Mus musculus with 7 samples.

Results

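The insulin-like growth factor (IGF) axis was followed in hippocampal neurospheres from Med23 CKO and control mice through 10 genes of the deposited expression table, chosen by symbol: the ligand Igf1, the receptors Igf1r and Insr, the adaptors Irs1 and Irs2, and the binding proteins Igfbp2, Igfbp3, Igfbp4, Igfbp5 and Igfbp7. All 10 were found among the 24346 genes of the table and all 10 were among the 14151 genes tested. Neural stem cells (NSCs) of the hippocampus, the brain region where new neurons are added throughout adult life, were grown as primary neurospheres, and each RNA-seq library came from the culture of a single C57/BL6 mouse aged 2 months. The 3 Med23 CKO mice (KO_117, KO_214 and KO_218) carried Nestin-CreER and Med23 flox/flox. Recombination was thus driven from the Nestin promoter, which is active in neural stem and progenitor cells. The paper adds that Cre driven by Nestin is found in endothelial cells too. Progeny of recombined cells inherit the deletion, and cells that never recombined keep Med23. The 4 control mice (WT_116, WT_213, WT_215 and WT_220) are labelled wild type, and the methods describe controls as littermates with Med23 flox/+ or Med23 flox/flox. Every animal was given tamoxifen by gavage at 200 mg/kg on 5 days, at 2 months of age per the labels and earlier for cultures per the methods. Cultures of both groups grew with FGF, EGF and the B27 and N2 supplements, which as usually supplied contain insulin.

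IGF-1 is a secreted growth factor that binds the IGF-1 receptor, a tyrosine kinase closely related to the insulin receptor. Both receptors phosphorylate the adaptors IRS1 and IRS2, which recruit PI3 kinase and pass the signal to AKT, FOXO factors and mTOR. In extracellular fluid most IGF is held by binding proteins, which prolong its life and keep it from the receptor until proteases such as PAPP-A cut them. In the adult dentate gyrus IGF-1 is known to favour the proliferation of progenitors and the survival of new neurons.

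The values are FPKM, which scale the fragments of a gene by its transcript length and by the mapped fragments of the library, so that levels of different genes can be set side by side. Fold changes are differences in mean log2(FPKM + 1), Med23 CKO minus control, from limma over all genes tested. The limma p-values set each difference against the spread between single-animal cultures, moderated over all genes tested. The depth of each library is unknown, because the low values fell on no steps of whole fragments. Med23 had 10.3, 12.9, 11.4 and 10.1 FPKM in WT_116, WT_213, WT_215 and WT_220. KO_117, KO_214 and KO_218 had 9.97, 9.27 and 8.12 FPKM of it, all below the lowest control (log2 fold change -0.26, standard error 0.18, exact permutation p = 0.0571, two-sided). FPKM covers the whole gene and not the deleted exons alone. For the deletion itself, the paper shows qRT-PCR of Med23 in primary neurospheres and a western blot of hippocampal tissue. Med23 CKO mouse KO_214 stood apart in markers of cells outside the neural lineage. The summed level of 12 microglia and macrophage markers was 911 FPKM in KO_214, whereas KO_117 and KO_218 had 31.5 and 153 FPKM and the controls ran from 32.1 to 208 FPKM. For 10 endothelial markers the sum was 145 FPKM in KO_214, against 8.94 and 45.9 FPKM in the other Med23 CKO libraries and 13.1 to 75.1 FPKM in control, and for 11 mural and fibroblast markers it was 554 FPKM, against 10.9 and 74.7 FPKM and 15.2 to 124 FPKM. In KO_214 lay the highest value of 10 of the 12, 10 of the 10 and 11 of the 11 markers. None of these 33 markers was at 0 in any library. The 8 neural stem and astroglial markers summed to 1877 to 3807 FPKM in the controls and to 2053 to 3808 FPKM in the Med23 CKO libraries, and none was at 0. KO_214 stood apart in this list too, with the highest Gfap, an astrocyte filament gene, at 321 FPKM against 17.8 to 138 FPKM elsewhere, and the lowest Fabp7, 203 FPKM against 463 to 1557 FPKM. In whole cultures, fewer cells of a type and less RNA per cell cannot be told apart.

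Igfbp2, Igfbp3, Igfbp4 and Igfbp7 had higher mean levels than the ligand, receptors and adaptors in both groups. In control, Igfbp2 had the highest mean at 596 ± 253 FPKM (SD, n = 4), followed by Igfbp3 at 327 ± 105 FPKM. Igfbp2 was highest in all 7 libraries, and Igfbp3 was next except in KO_214, where Igfbp7 lay above it. Igfbp7 (58.8 ± 45.9 FPKM) and Igfbp4 (55.7 ± 21.2 FPKM) came next and changed places between libraries, with Igfbp4 above Igfbp7 in 2 of 4 controls and in 2 of 3 Med23 CKO libraries. Irs2 (17.4 ± 2.79 FPKM) and Igfbp5 (16.4 ± 4.58 FPKM) did not differ beyond their spread in control, and neither did Insr (11.8 ± 2.20 FPKM) and Igf1r (10.9 ± 1.52 FPKM), each pair keeping its order in 2 of 4 controls. Irs1 had 8.68 ± 3.12 FPKM, and Igf1 was lowest at 4.79 ± 3.08 FPKM. The members differed widely in their range over the libraries. The highest library exceeded the lowest 29.5 times for Igf1, 26.5 times for Igfbp7, 10.5 times for Igfbp5 and 8.45 times for Igfbp4, but 1.50 times for Igf1r and 2.05 times for Insr. KO_214 held the highest value of 3 members (Igf1, Igfbp5 and Igfbp7), KO_117 that of 4 (Insr, Irs2, Igfbp2 and Igfbp4), and KO_218 the lowest value of 5 (Igf1r, Irs1, Irs2, Igfbp3 and Igfbp5).

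**Figure D1:**
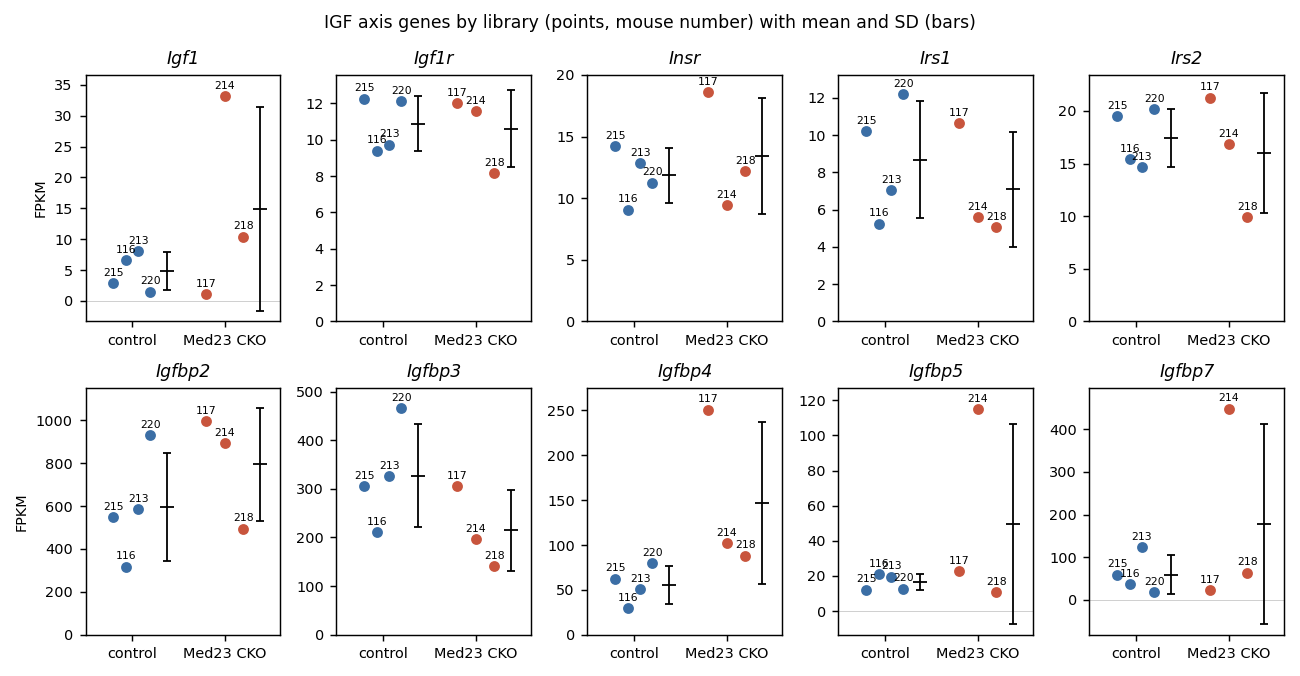
FPKM (linear axis, a panel per gene) of the 10 IGF axis genes in 4 control (blue) and 3 Med23 CKO (red) libraries, labelled by mouse number, with the group mean and SD as black bars, which in Med23 CKO reach below 0 for Igf1, Igfbp5 and Igfbp7. For Igfbp4 the 3 red points lie above all blue points, and for Igf1, Igfbp5 and Igfbp7 the library KO_214 lies far above the rest.

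Across the 10 genes, Med23 CKO differed from control in Igfbp4 alone at an unadjusted p under 0.05. Of the 10 members, 6 had a positive and 4 a negative fold change, with a median of 0.29 against -0.03 over all genes tested. By limma, 1 member passed upward and 0 downward, where 0.502% of all genes tested passed upward and 0.996% downward. After adjustment limma called 0 members and 0 of the 14151 genes (0%), while 212 genes had an unadjusted p under 0.05. For Igfbp4 all 3 Med23 CKO values exceeded all 4 control values, a pattern found in 0.784% of all genes tested. The reverse, found in 1.53% of genes, was seen in 0 members, and for the other 9 members the groups overlapped.

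**Figure D2:**
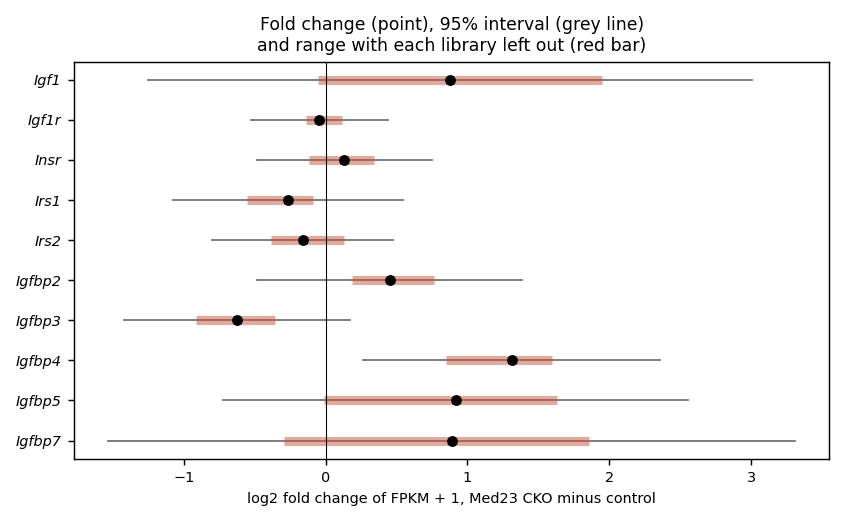
Log2 fold change of FPKM + 1, Med23 CKO minus control, for the 10 genes (black points), with the 95% interval from limma (grey lines) and the range of values with each of the 7 libraries left out in turn (red bars). The interval of Igfbp4, 0.26 to 2.36, lies above 0, whereas those of the other 9 genes include 0.

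Igfbp4, which encodes a binding protein that restrains IGF action until PAPP-A cleaves it, had 29.7, 50.5, 62.5 and 80.1 FPKM in WT_116, WT_213, WT_215 and WT_220. In KO_117, KO_214 and KO_218 it had 251, 102 and 88.3 FPKM. The lowest Med23 CKO value was thus just above the highest control value, and KO_117 was far above both other Med23 CKO libraries. The means were 55.7 ± 21.2 FPKM (SD, n = 4) and 147 ± 90.2 FPKM (SD, n = 3), a ratio of 2.64. Its log2 fold change was 1.31 (standard error 0.45, limma unadjusted p = 0.0208, adjusted p near 1), and exact permutation of the group labels gave p = 0.0571, where the smallest possible value with 4 and 3 libraries is 0.0286. Without KO_117 the log2 fold change was 0.85 and the unadjusted limma p of 0.0587 missed the threshold. Without KO_214, the library rich in microglia and vascular markers, it was 1.49. KO_117, the library with the highest Igfbp4, had the lowest sums of microglia, endothelial and mural markers of all 7 (31.5, 8.94 and 10.9 FPKM). Control WT_220 had the next lowest, 32.1, 13.1 and 15.2 FPKM, with Igfbp4 at 80.1 FPKM. KO_117 also had the lowest sum of 7 oligodendrocyte lineage markers, 2191 FPKM against 2663 to 4843 FPKM elsewhere. The part of cell make-up in the Igfbp4 level was not tested.

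Igfbp3, a binding protein that carries IGF and is itself a regulator of cell growth, had 211, 326, 306 and 467 FPKM in WT_116, WT_213, WT_215 and WT_220, and 306, 197 and 141 FPKM in KO_117, KO_214 and KO_218. Its values overlapped, since KO_117 lay in the middle of the controls while KO_214 and KO_218 lay below all of them. The log2 fold change was -0.62 (standard error 0.34, limma unadjusted p = 0.108, exact permutation p = 0.171). It stayed below 0 with each library left out, between -0.91 without KO_117 and -0.36 without KO_218, and it passed an unadjusted limma p of 0.05 without KO_117 and without WT_116. The 3 libraries lowest in Igfbp3, WT_116, KO_214 and KO_218, were also the 3 with the lowest sums of neural stem and astroglial markers, 1877, 2053 and 2154 FPKM against 3115 to 3808 FPKM elsewhere. Vim and Fabp7 made up most of that sum, and Gfap went the other way, being highest in KO_214. The part of these cells in the Igfbp3 level was not tested. Igfbp2, the main binding protein of the brain's neural progenitors and astrocytes, had 317, 585, 549 and 932 FPKM in the controls and 996, 892 and 494 FPKM in KO_117, KO_214 and KO_218. These groups overlapped too (log2 fold change 0.45, standard error 0.40, exact permutation p = 0.400).

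Within each library, the make-up of the binding protein transcripts separated the groups, Igfbp3 taking a smaller place beside Igfbp4 and Igfbp2 in every Med23 CKO library. The ratio of Igfbp3 to Igfbp4 was 7.11, 6.45, 4.89 and 5.83 in WT_116, WT_213, WT_215 and WT_220, and 1.22, 1.93 and 1.60 in KO_117, KO_214 and KO_218. No control was below 4.89 and no Med23 CKO library above 1.93, so the groups lay far apart. The geometric mean was 6.01 in control and 1.55 in Med23 CKO, 3.87 times lower. On the log2 scale this was 2.59 ± 0.231 (SD, n = 4) and 0.635 ± 0.333 (SD, n = 3), a difference of -1.95 (exact permutation p = 0.0286, the smallest possible). Leaving out any single library kept the difference between -2.11 and -1.78. Igfbp2 to Igfbp3 was 1.50 to 2.00 in control and 3.26, 4.53 and 3.50 in KO_117, KO_214 and KO_218 (difference 1.08 on the log2 scale, exact permutation p = 0.0286). Igfbp2 to Igfbp4 also did not overlap, with 8.79 to 11.6 in control and 3.97, 8.73 and 5.60 in Med23 CKO (difference -0.87, exact permutation p = 0.0286). The controls' lowest and the Med23 CKO group's highest value were nearly equal for this last pair.

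These ratios were examined after the single levels had been seen. Of the 10 pairs of binding proteins, 3 did not overlap between the groups, and their exact permutation p adjusted over the 10 pairs was 0.0952 each. These 3 are the pairings of Igfbp2, Igfbp3 and Igfbp4, so each follows from the others and they are not separate results. The 10 pairs were ratios of FPKM with nothing added, and no background was formed for ratios to Igfbp4. As a background, the ratio to Igfbp3 was formed on the log2(FPKM + 1) scale for the 14150 other genes tested. In 9.43% of them all 3 Med23 CKO ratios exceeded all 4 control ratios, and in 0.0707% all were below. Of the 9 other members, 3 exceeded in this way (Igfbp2, Igfbp4 and Insr). Igfbp3 had been taken as the denominator after its values were seen, so a rank among these ratios depends on that choice. When limma was fitted to these ratios on the log2(FPKM + 1) scale, Igfbp4 had the smallest p of all 14150 genes (log2 fold change of the ratio 1.93, standard error 0.30, unadjusted p = 9.69e-05) and Igfbp2 had the 20th smallest, but the adjusted p was 0.435 for both and 0 genes passed at an adjusted p under 0.05, while 567 genes (4.01%) were higher at an unadjusted p under 0.05.

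Igfbp3 held 34.3%, 29.5%, 30.9% and 30.9% of the summed FPKM of the 5 binding proteins in WT_116, WT_213, WT_215 and WT_220, and 19.1%, 11.2% and 17.7% in KO_117, KO_214 and KO_218. Every Med23 CKO share was below every control share, with means of 31.4% ± 2.03 (SD, n = 4) and 16.0% ± 4.20 (SD, n = 3; exact permutation p = 0.0286). This share was examined after the data were seen and is built from the same values as the ratios, so it is not separate support. Igfbp2 kept the largest share in all 7 libraries, 55.5% ± 4.52 in control and 58.4% ± 6.53 in Med23 CKO, and its groups overlapped. Igfbp4 made up 4.58% to 6.32% in control and 15.7%, 5.83% and 11.1% in KO_117, KO_214 and KO_218. Igfbp7 held 25.6% in KO_214 and at most 11.1% elsewhere. The summed FPKM of the 5 genes was 1054 ± 367 in control and 1384 ± 513 in Med23 CKO (exact permutation p = 0.371).

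**Figure D3:**
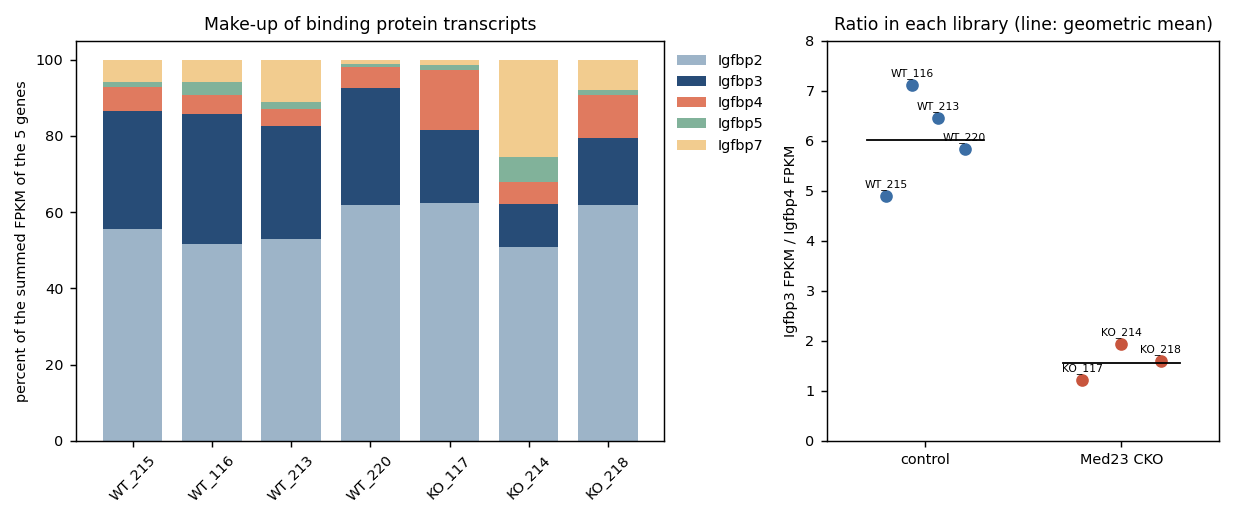
Left, percent of the summed FPKM of the 5 binding protein genes held by each gene in every library; right, Igfbp3 FPKM divided by Igfbp4 FPKM in each library (linear axis from 0), with the geometric mean of each group as a line. The Igfbp3 segment is 29.5% to 34.3% in the 4 controls and 11.2% to 19.1% in the 3 Med23 CKO libraries, and the ratio is at least 4.89 in control and at most 1.93 in Med23 CKO.

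Igfbp3 and Igfbp4 lie on the same chromosome but far from each other, Igfbp3 on the reverse strand of chromosome 11 from 7206086 to 7215498 and Igfbp4 on the forward strand from 99040005 to 99052655 (GRCm38.p6, RefSeq). Next to Igfbp3, with 3539 bases between them and their 3' ends facing each other, lies Igfbp1, which had 1.56 to 4.71 FPKM in control and 1.28, 1.42 and 4.27 FPKM in KO_117, KO_214 and KO_218. Igfbp2 and Igfbp5 form a like pair on chromosome 1, from 72824480 to 72852474 and from 72858065 to 72874865, with 5590 bases between them. The promoters of Igfbp4 and Igfbp3 are shown because their ratio separated the groups, and that of Igfbp7 because it spanned the widest range on the log2(FPKM + 1) scale, in each case the 250 bases before a RefSeq transcript start (GRCm38.p6), 5' to 3' on the gene's strand. Igfbp4 is read from chr11:99040994-99041243 forward, Igfbp3 from chr11:7213924-7214173 reverse and Igfbp7 from chr5:77408046-77408295 reverse. The RefSeq spans of Igfbp4 and Igfbp3 reach further upstream than the starts used here, so both windows lie inside the span of a longer transcript. Igfbp7 runs from 77349240 to 77408045 on the reverse strand of chromosome 5, and its window lies just outside the gene. Capitals mark matches on either strand to the TATA box TATAAA and its variant TATATA, to the GC box GGGCGG, and to CCGGAA (the core bound by ETS factors such as Elk1, with which the Med23 protein is known to interact).
Igfbp4: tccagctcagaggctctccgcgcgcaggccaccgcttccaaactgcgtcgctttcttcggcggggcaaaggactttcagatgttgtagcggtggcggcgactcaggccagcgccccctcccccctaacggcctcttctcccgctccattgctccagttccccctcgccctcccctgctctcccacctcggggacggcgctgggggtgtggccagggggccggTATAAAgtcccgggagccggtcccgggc
Igfbp3: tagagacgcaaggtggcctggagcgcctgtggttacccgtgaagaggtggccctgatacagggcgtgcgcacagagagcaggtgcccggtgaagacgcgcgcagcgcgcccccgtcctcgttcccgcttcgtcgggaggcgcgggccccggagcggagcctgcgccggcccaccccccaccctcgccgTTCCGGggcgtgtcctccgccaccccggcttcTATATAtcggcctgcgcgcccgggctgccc
Igfbp7: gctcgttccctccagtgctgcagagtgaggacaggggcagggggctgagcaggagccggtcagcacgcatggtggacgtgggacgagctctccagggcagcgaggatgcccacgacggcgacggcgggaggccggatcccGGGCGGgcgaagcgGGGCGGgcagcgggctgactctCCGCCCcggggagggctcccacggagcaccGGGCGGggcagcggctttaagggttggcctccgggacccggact
Igfbp4 holds TATAAA beginning 28 bases before the start, a sequence found in 12.4% of the 32851 RefSeq windows of this length. Igfbp3 holds TATATA beginning 30 bases before the start, found in 5.25% of windows, and CCGGAA in reverse, found in 12.03%. Igfbp7 holds 4 matches to GGGCGG, which 32.7% of windows hold at least once, and none to the other letters searched. Windows were found for 9 of the 10 members, all but Insr. TATAAA was found in Igfbp4 and in no other member with a window, and GGGCGG in 5 members (Igf1r, Irs1, Irs2, Igfbp2 and Igfbp7). CCGGAA was found in 2 members, Irs1 and Igfbp3, and TATATA in Igfbp3 alone. These matches are letters in a window and were not tested for binding.

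Igf1, Igfbp7 and Igfbp5 had higher group means in Med23 CKO that rested on KO_214. Igf1, the ligand, which microglia are known to secrete, had 6.60, 8.12, 2.94 and 1.51 FPKM in WT_116, WT_213, WT_215 and WT_220, and 1.125, 33.2 and 10.4 FPKM in KO_117, KO_214 and KO_218. Both the lowest and the highest of the 7 values were in Med23 CKO. The log2 fold change was 0.88 (standard error 0.91, limma unadjusted p = 0.367). It was -0.055 without KO_214, and 1.95 without KO_117, where it passed an unadjusted limma p of 0.05. The paper, which used Cuffdiff, names Igf1 among its upregulated genes. From highest to lowest Igf1, the libraries ran KO_214, KO_218, WT_213, WT_116, WT_215, WT_220 and KO_117. By the sum of microglia and macrophage markers they ran in that order except that WT_213 and KO_218 changed places. The sum of endothelial markers put the libraries in the same order as the microglia sum. The part of either cell type in the Igf1 level was not tested.

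Igfbp7, a secreted protein of vessel walls that binds IGF weakly, had 36.6, 123, 58.9 and 16.9 FPKM in the controls, in the order WT_116, WT_213, WT_215 and WT_220, and 22.0, 449 and 63.8 FPKM in KO_117, KO_214 and KO_218. All but KO_214 lay within the control range. Its log2 fold change of 0.89 (standard error 1.04, limma unadjusted p = 0.418) became -0.29 without KO_214. Igfbp5, a binding protein that attaches to extracellular matrix, had 21.1, 19.6, 12.2 and 12.8 FPKM in the controls and 22.8, 115 and 11.0 FPKM in KO_117, KO_214 and KO_218. Here the controls were close together and KO_214 was far above all other libraries. Its log2 fold change of 0.92 had a standard error of 0.70 (exact permutation p = 0.400). It was -0.0097 without KO_214, and 1.63 without KO_218, where it passed an unadjusted limma p of 0.05. All 3 genes were highest in the library with the highest sums of microglia, endothelial and mural markers. Outside KO_214 the order of Igfbp5 differed from that of the sums, since KO_117 was next in Igfbp5 and lowest in all 3 sums. The part of those cells in the values was not tested. The 3 genes with the profile closest to Igfbp7 over the 7 libraries, by the root mean square difference of mean-centred log2(FPKM + 1), were Spi1 (0.26), a transcription factor of myeloid cells, and the leukocyte surface genes Itgb2 (0.27) and Cd52 (0.30). For Igfbp5 they were Agtr2 (0.34), Tacr1 (0.37) and Mmp1a (0.37). Agtr2, Tacr1 and Mmp1a were each at most 0.523 FPKM outside KO_214. They passed the filter on low values only through KO_214, and their closeness to Igfbp5 rests on that library. The genes closest to Igfbp4 were Tmem173, which encodes STING (0.25), Vit (0.31) and D430036J16Rik (0.33), and all 3 were highest in KO_117.

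**Figure D4:**
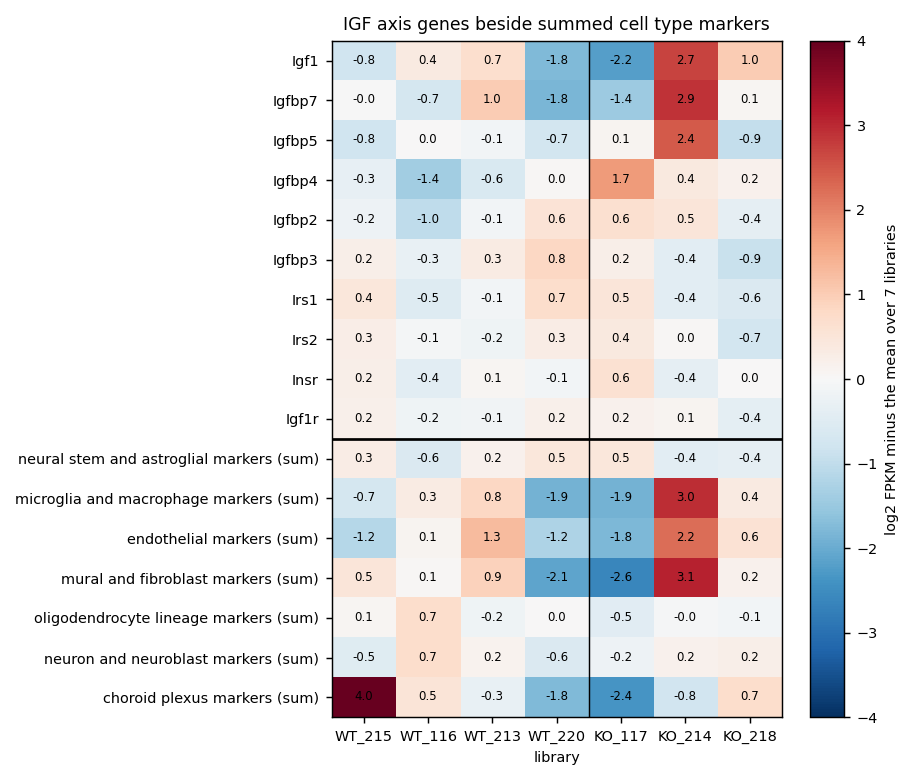
Log2 FPKM minus the mean of the row over the 7 libraries, for the 10 genes (upper rows) and for the summed FPKM of 7 lists of cell type markers (lower rows), with controls left of the vertical line and Med23 CKO right of it. Igf1, Igfbp7 and Igfbp5 share their highest column, KO_214, with the microglia, endothelial and mural lists, whereas Igfbp4 is highest in KO_117.

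The receptors and adaptors spanned at most 2.42 times between their lowest and highest libraries, and their groups overlapped. Igf1r, the IGF-1 receptor, had 9.39, 9.73, 12.3 and 12.1 FPKM in WT_116, WT_213, WT_215 and WT_220, and 12.02, 11.6 and 8.15 FPKM in KO_117, KO_214 and KO_218. The log2 difference of Igf1r was -0.04 with a 95% interval from -0.53 to 0.44. Insr, the insulin receptor, had 9.08 to 14.2 FPKM in control and 18.6, 9.43 and 12.2 FPKM in KO_117, KO_214 and KO_218 (log2 fold change 0.13, interval -0.49 to 0.75). Irs1, an adaptor shared by both receptors, had 5.25 to 12.2 FPKM in control, and KO_117, KO_214 and KO_218 had 10.6, 5.60 and 5.04 FPKM (-0.26, interval -1.07 to 0.55). Irs2, the adaptor whose transcription FOXO factors are known to raise when insulin signalling is low, had 14.7 to 20.1 FPKM in control, and KO_117, KO_214 and KO_218 had 21.3, 16.9 and 9.93 FPKM (-0.16, interval -0.80 to 0.48). For these 4 genes the unadjusted limma p lay between 0.470 and 0.839, and the intervals leave room for changes of either sign.

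Beyond the members, 47 other genes of insulin and IGF signalling were followed, of which 40 passed the filter on low values. Their fold changes were positive for 20 and negative for 20, with a median of 0.00 on the log2 scale, and 0 had an unadjusted limma p under 0.05 where 1.50% of all genes tested did. The other ligands were low. Ins2 was listed at 0 in 6 of 7 libraries, Ins1 did not exceed 0.380 FPKM, and Igf2 had 0.390, 0.280, 2.50 and 0.114 FPKM in WT_116, WT_213, WT_215 and WT_220 and 0.0134, 0.414 and 0.256 FPKM in KO_117, KO_214 and KO_218. Igf2r, which removes IGF-2 from the cell surface, had 11.5 to 23.2 FPKM in control and 13.9, 44.4 and 19.6 FPKM in KO_117, KO_214 and KO_218 (log2 fold change 0.41). Among other binding proteins, Igfbp6 had 0.472 to 2.97 FPKM in control and was highest in KO_214 at 6.69 FPKM, and Igfbpl1 had 0.183 to 3.03 FPKM in control, and KO_117, KO_214 and KO_218 had 2.995, 2.13 and 1.014 FPKM. Pappa, the protease that cuts Igfbp4, had at most 0.443 FPKM in any library and Pappa2 at most 0.0728 FPKM. Igfals and the receptor Insrr were also low, at most 0.379 and 0.0788 FPKM. Stc1, an inhibitor of that protease, had 1.40 to 5.44 FPKM in control and 4.47, 3.72 and 1.33 FPKM in KO_117, KO_214 and KO_218 (log2 fold change 0.15). Stc2, a related inhibitor, had 0.838 to 9.75 FPKM in control and 10.5, 2.63 and 1.54 FPKM in KO_117, KO_214 and KO_218 (log2 fold change 0.16). The smallest limma p of the 40 genes was that of Htra1, a protease that also cuts binding proteins, with 35.6 to 47.2 FPKM in control and 51.9, 85.7 and 46.5 FPKM in KO_117, KO_214 and KO_218 (log2 fold change 0.47, exact permutation p = 0.0571).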

How the data were processed

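RNA-seq was performed on primary neurospheres of 7 mice, 4 control and 3 Med23 CKO, grouped by sample title. The study's text counts fewer control mice than the table has control columns, and all 4 were used. The authors trimmed adapters, mapped reads with TopHat on the mm10 build and used Cuffdiff to obtain FPKM for each gene in each library. These deposited FPKM values were used here. The annotation is not given in the sources used here. Group means and the authors' own test columns (fold change, statistic, p and q) in the same table were not used. Genes whose FPKM averaged 0.5 or more across all 7 libraries were analysed as log2(FPKM + 1), a scale that understates the change of low genes, with limma 3.58.1 (lmFit, eBayes with trend) in R 4.3.3, with Benjamini-Hochberg adjustment over the 14151 genes tested. Limma takes the place of Cuffdiff, which needs reads. Single values were tested two-sided by exact permutation of the group labels (35 arrangements). The fit was tested on simulated data. The low values of the 21 pairs of libraries showed no steps of whole fragments, with at most 2.86% of low genes in a bin of 0.05 log2, so depth is unknown and the number of libraries limits the precision. No 2 libraries held the same values. Alternatives were a pseudocount of 0.1, other filters, quantile normalization, median centring, array weights, a covariate for the leading digit of the mouse number and each library left out. Named were the 10 members, Med23, the other ligands, receptors, binding proteins, proteases and protease inhibitors of the pathway list, any pathway gene past an unadjusted p of 0.05 or without overlap, and the 3 nearest profiles of members spanning over 2 on the log2 scale, those of Igf1 being not reported here. The members and lists were chosen with earlier results of these data known, and the ratios of binding proteins, the Igfbp3 share and the fits without 2 libraries were added after the data were seen. Promoters are from RefSeq on GRCm38.p6, the assembly of mm10. Figures were drawn with matplotlib 3.10.9.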

Additional observations from a re-analysis of the deposited data

How the results depend on the processing

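Igfbp4 stayed higher in Med23 CKO under every alternative run, the lowest log2 fold changes being 0.89 with array weights and 0.85 without KO_117, and kept an unadjusted p under 0.05 except without KO_117 and by the exact permutation test (log2 fold change 1.31, p = 0.0571); with each library left out it ranged from 0.85 to 1.59. Array weights turned Insr to -0.014 and Igfbp5 to -0.072 and brought Irs2 (-0.53) and Igfbp3 (-0.98) past an unadjusted p of 0.05, and quantile normalization did so for Igfbp3 (-0.66). Array weights also moved Igfbp2 to 0.034, Igfbp7 to 0.18, Igf1r to -0.26 and Irs1 to -0.49. Members lower at that threshold then numbered 2 with array weights and 1 with quantile normalization, and 2 other pathway genes were lower with array weights. Over all genes, 193 were higher and 887 lower with array weights, and 195 and 273 with no filter on low values; the cause was not tested. Without WT_215 and KO_214 together, Igf1 was -0.18, Igfbp5 -0.13 and Igfbp7 -0.18. Leaving out single libraries, the log2 fold changes ranged from -0.055 to 1.95 (Igf1), -0.14 to 0.12 (Igf1r), -0.11 to 0.34 (Insr), -0.56 to -0.09 (Irs1), -0.39 to 0.13 (Irs2), 0.18 to 0.76 (Igfbp2), -0.91 to -0.36 (Igfbp3), -0.0097 to 1.63 (Igfbp5) and -0.29 to 1.85 (Igfbp7). The counts ranged from 1 to 2 members higher and 0 to 1 lower, 0 to 1 other pathway genes higher, and 45 to 354 of all genes higher and 70 to 410 lower. The log2 ratio of Igfbp2 to Igfbp4 kept its sign under quantile normalization at -0.81 (exact permutation p = 0.0571) and was -1.17 without KO_214 and -0.60 without KO_117. The difference in the log2 ratio of Igfbp3 to Igfbp4, -1.95, was -1.93 with a pseudocount of 1, -1.96 with quantile normalization and -2.21 without WT_215 and KO_214. No paired analysis was possible because the mouse numbers differ between the groups and none is shared.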

Other observations

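Control mouse WT_215 held the highest value of all 5 choroid plexus markers (Ttr, Folr1, Kcnj13, Clic6 and Otx2). Their sum was 649 FPKM there, against 12.2 to 59.0 FPKM in the other controls and 7.98 to 66.9 FPKM in Med23 CKO. Igf2 was also highest in this library, at 2.50 FPKM, with at most 0.414 FPKM elsewhere. Choroid plexus is a known site of Igf2 transcription in the adult brain, and whether such cells account for the Igf2 in this library was not tested. Igf2 had a log2 fold change of -0.42 in Med23 CKO (exact permutation p = 0.571). The paper, which used Cuffdiff, names Igf2 among its downregulated genes.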
